A study of Mus musculus with 4 samples.

Results

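The enzymes and transporters of glycolysis, lactate handling and the pentose phosphate pathway were followed in cells sorted from the injured mouse retina. They were a list of 33 genes chosen by symbol for their place in these pathways. The choice used no measured value, but earlier results of these data were known when it was made. All 33 symbols were found in the deposited count table. They took 34 of its 56493 rows, because Aldoa names 2 gene identifiers. All 34 passed the filter on low counts. All samples came from wild-type mice whose eyes were injected with AAV2, a viral gene carrier, into the vitreous. The optic nerve, the bundle of retinal ganglion cell axons, was crushed a month later in both groups, and the sorted cells are labelled RGC (retinal ganglion cells). The CrAT group (2 libraries) received AAV2-CrAT, the carrier of carnitine acetyltransferase. The MCS group (2 libraries) received AAV2-MCS, a name that is not spelled out. The titles of all 4 samples also carry NCd8, which the labels do not explain. No strain, sex, age, vector promoter or time between crush and sort is stated in the labels. Whether replicates are separate animals is not stated either, and the p-values then measure only how far these libraries spread, which may be technical.

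Glycolysis splits glucose into pyruvate in the cytosol and yields ATP without oxygen. Lactate dehydrogenase can turn the pyruvate into lactate, which leaves or enters cells through monocarboxylate transporters. Some of these need the chaperone basigin at the membrane. The pentose phosphate pathway branches off at glucose 6-phosphate, and its oxidative steps make NADPH, which keeps glutathione reduced. The retina is known for turning much of its glucose into lactate even when oxygen is present, mainly in photoreceptors. Carnitine acetyltransferase exchanges acetyl units of acetyl-CoA with carnitine in mitochondria, at the point where pyruvate-derived carbon becomes acetyl-CoA.

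The stretch of 250 bases before the start site is printed for 4 members, to show the promoter letters of genes that lay on opposite sides in the comparison below. In Pgk1 and Ldha the CrAT libraries were the higher ones without overlap, and in Slc2a1 the lower ones. Slc16a1 is added as the member with the next lowest p among those lower in CrAT after Slc16a8. The sequences are from RefSeq on GRCm38.p6, read 5′ to 3′ on the plus strand of the genome, which is the strand of all 4 genes. Capitals mark ACGTG or GCGTG on either strand, the core of the hypoxia response element that HIF-1 binds. The windows are chrX:106186850-106187099 for Pgk1, chr7:46845554-46845803 for Ldha (the first of 2 start sites), chr4:119108495-119108744 for Slc2a1 and chr3:104638414-104638663 for Slc16a1.
Pgk1: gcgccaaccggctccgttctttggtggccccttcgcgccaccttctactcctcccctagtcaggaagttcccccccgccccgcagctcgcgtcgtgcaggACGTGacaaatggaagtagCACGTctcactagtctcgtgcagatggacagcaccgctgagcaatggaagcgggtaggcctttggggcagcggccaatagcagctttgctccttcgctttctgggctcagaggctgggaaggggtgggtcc
Ldha: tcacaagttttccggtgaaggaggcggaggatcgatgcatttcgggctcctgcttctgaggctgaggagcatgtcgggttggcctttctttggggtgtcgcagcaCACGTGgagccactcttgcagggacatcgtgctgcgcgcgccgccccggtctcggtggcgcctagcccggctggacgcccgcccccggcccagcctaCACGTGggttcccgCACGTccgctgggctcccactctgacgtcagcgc
Slc2a1: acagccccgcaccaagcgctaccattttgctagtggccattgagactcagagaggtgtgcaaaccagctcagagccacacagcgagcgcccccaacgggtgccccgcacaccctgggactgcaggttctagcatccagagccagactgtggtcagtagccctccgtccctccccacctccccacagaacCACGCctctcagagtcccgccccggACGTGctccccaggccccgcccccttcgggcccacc
Slc16a1: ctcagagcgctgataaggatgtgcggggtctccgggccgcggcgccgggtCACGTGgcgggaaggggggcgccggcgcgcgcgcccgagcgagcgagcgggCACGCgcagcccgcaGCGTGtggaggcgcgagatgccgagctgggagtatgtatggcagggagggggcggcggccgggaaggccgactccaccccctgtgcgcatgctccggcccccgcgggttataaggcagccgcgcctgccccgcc
Each of the 4 windows held such a core, the 2 on the higher side and the 2 on the lower side alike. This did not hold for every member, as the windows of Gpi1, on the higher side, and Slc16a8, on the lower side, held neither. In Ldha and Slc16a1 some of the matches were part of the E-box CACGTG, which contains ACGTG. RefSeq promoters were found for 30 of the 33 symbols, 45 promoters in all, some of which overlap each other. ACGTG was present in 16 of the 45 (35.6%), against 20.7% of 15904 promoters of genes tested and 16.6% of all 32851 promoters of this length. GCGTG was present in 25 of the 45 (55.6%), against 41.8% and 28.2%. The E-box CACGTG was present in 5 (11.1%), against 7.83% and 6.02%. TAATCC, a site of the type that the photoreceptor factor CRX binds, was present in 4 (8.89%), against 5.47% and 6.25%. These matches describe letters in a window, and binding was not measured.

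The 4 libraries held 24494253 to 27097438 counts, and 3 counts, the limit that a count of 0 allows, corresponded to 0.109 to 0.126 CPM (counts per 1000000, scaled between libraries by TMM). The limit is one of counting error only, because PCR copies that carry no molecular identifier cannot be counted as separate molecules. The sort label was checked against marker genes. The ganglion cell factor Pou4f1 had 0 and 20 counts in the CrAT pair (replicate 1, then 2, as throughout) and 1 and 15 in the MCS pair, and 22 ganglion cell markers summed to 394.4 to 665.9 CPM. Against that, 18 rod photoreceptor markers summed to 33890 to 62830 CPM, far above the ganglion cell markers. Of the 22 ganglion cell markers 20 had enough counts to be tested. Pou4f1, Pou4f2, Pou4f3 and Prph were at 0 in at least 1 library, though Prph had 87 and 133 counts in CrAT against 15 and 0 in MCS. Other markers of the list had far more counts than Pou4f1, such as Jam2 with 1856 to 4762 and Tubb3 with 1453 to 3833 a library. In bulk RNA of this kind, fewer cells of a type and less RNA per cell cannot be told apart. Among 10 nuclear retained RNAs, Malat1 was 1278 CPM in MCS replicate 1 against 306.9 to 393.5 CPM elsewhere, while the other 9 summed to 342.6 CPM there against 213.4 to 347.5 CPM and did not set it apart. Of 22 Mueller glia markers, 20 had a log2 fold change below 0, and 12 had CrAT as the lower group without overlap (16.6% of all genes). None was called by edgeR or DESeq2, 4 were lower at an unadjusted p under 0.05 in edgeR (2.87% of all genes), and none was at 0 counts. They summed to 19860 and 17150 CPM in CrAT against 28350 and 25090 CPM in MCS.

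Together the members took 3.79% and 4.61% of the counts in the CrAT pair, and 3.53% and 4.11% in the MCS pair. None of the 34 passed the test between the groups. By edgeR's quasi-likelihood test with Benjamini-Hochberg adjustment over 19638 genes every member had an adjusted p of 1, where 0% of all genes passed 0.05. At an unadjusted p under 0.05 it was also 0 of 34, against 4.15% of all genes tested (1.28% higher and 2.87% lower in CrAT). DESeq2 called none of them either, with 0 at an unadjusted p under 0.05, against 0.291% of genes called and 4.57% at an unadjusted p under 0.05 over the table. The lowest p among the members was 0.0787, for Slc16a8. That gene passed the filter on low counts through the MCS libraries, where it was higher, so its p is no support for a difference.

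The size of the difference was poorly bounded by 2 libraries a group. All 34 of the 95% intervals of the log2 fold change held 0. None lay wholly within a 1.5-fold change in both directions, and 5 lay within a 2-fold change. The intervals of 24 members reached a 2-fold higher level in CrAT and those of 10 a 2-fold lower level. A p that misses the threshold therefore does not show that these genes were expressed alike. The log2 fold change, CrAT over MCS, was above 0 for 22 of 34 members, against 50.6% of all genes, and below 0 for 12, with a median of 0.18 beside 0.008 over all genes tested. Without CrAT replicate 2 the median was -0.027. For 13 members the sign changed under at least 1 other processing or without 1 library, namely Hk2, Pfkm, Aldoc, Gapdh, Pgam1, Eno1, Pfkfb2, Pfkfb3, Tigar, Ldhb, Slc16a3, Pgls and Tkt. The other 21 kept their sign in every alternative run on them, which for Slc16a8 and Rpia leaves out the filter at a CPM of 1 that removes both.

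**Figure D1:**
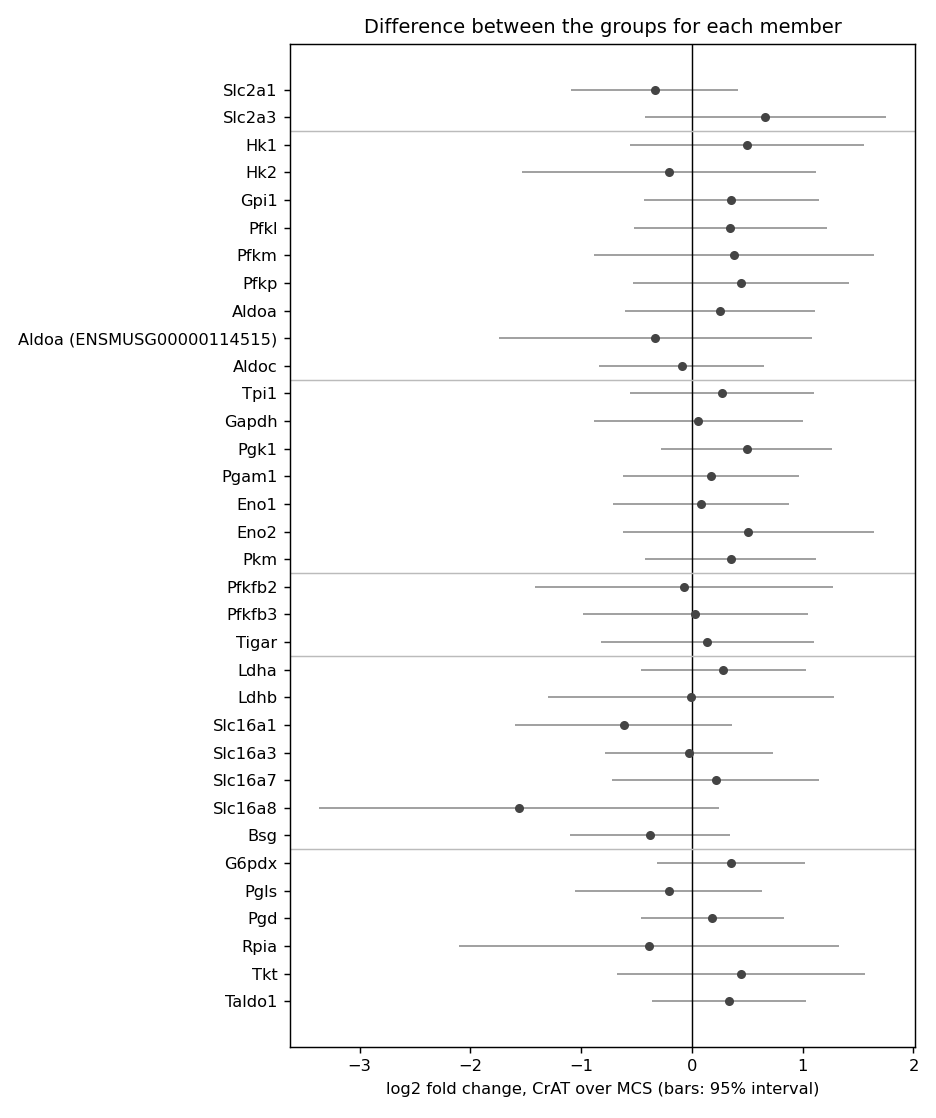
Log2 fold change of each member, CrAT over MCS, on the horizontal axis, with bars for the 95% interval from edgeR's fit; lines part the groups by role, from glucose uptake at the top to the pentose phosphate pathway at the bottom. All 34 bars cross 0, from Slc16a8 at -1.56 to Slc2a3 at 0.66.

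The groups did not overlap for 12 of 34 members, against 31.6% of all genes tested. CrAT was the higher group for 7 (Gpi1, Pgk1, Pkm, Ldha, G6pdx, Pgd and Taldo1), against 15% of all genes. It was the lower group for 5 (Slc2a1, Bsg, Slc16a8, Rpia and the minor Aldoa row), against 16.6% of all genes. These counts were close to the background, and Slc16a8 is among them only because its MCS libraries passed the filter on low counts. With 1 library left out, members not overlapping numbered 27 without CrAT replicate 1 (59.3% of all genes), 16 without CrAT replicate 2 (59.6%), 23 without MCS replicate 1 (72.4%) and 25 without MCS replicate 2 (71.7%). Members at an unadjusted p under 0.05 then numbered 0 without CrAT replicate 1 (3.36% of all genes), 0 without CrAT replicate 2 (2.82%), 3 without MCS replicate 1 (7.27%) and 2 without MCS replicate 2 (6.63%). With the replicate number as a block it was 2 (9.79% of all genes).

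Levels between genes were compared per length, in FPKM as deposited (fragments per kilobase of exon and library depth). Values were summed over the isozymes of each step. Aldolase was highest, at 2023 to 2848 FPKM. Enolase followed at 1254 to 1581 FPKM, glyceraldehyde-3-phosphate dehydrogenase at 1004 to 1723 FPKM and lactate dehydrogenase at 1095 to 1512 FPKM, and these 3 overlapped in range. The entry steps were lower, with glucose transporters at 117.6 to 139 FPKM, hexokinase at 70.7 to 164.5 FPKM, and phosphofructokinase, the main control point of the pathway, at 194.3 to 301.4 FPKM. Monocarboxylate transporters summed to only 42.1 to 78.9 FPKM, while basigin (Bsg), the chaperone of some of them, alone reached 637.3 to 890.9 FPKM. The non-oxidative pentose phosphate steps summed to 116.2 to 209.8 FPKM and the oxidative steps to 71.3 to 85.6 FPKM. By mean FPKM the muscle-type aldolase Aldoa ranked 10 among all rows of the table, Gapdh 17, Eno1 19, Pkm 27 and Ldha 28.

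**Figure D2:**
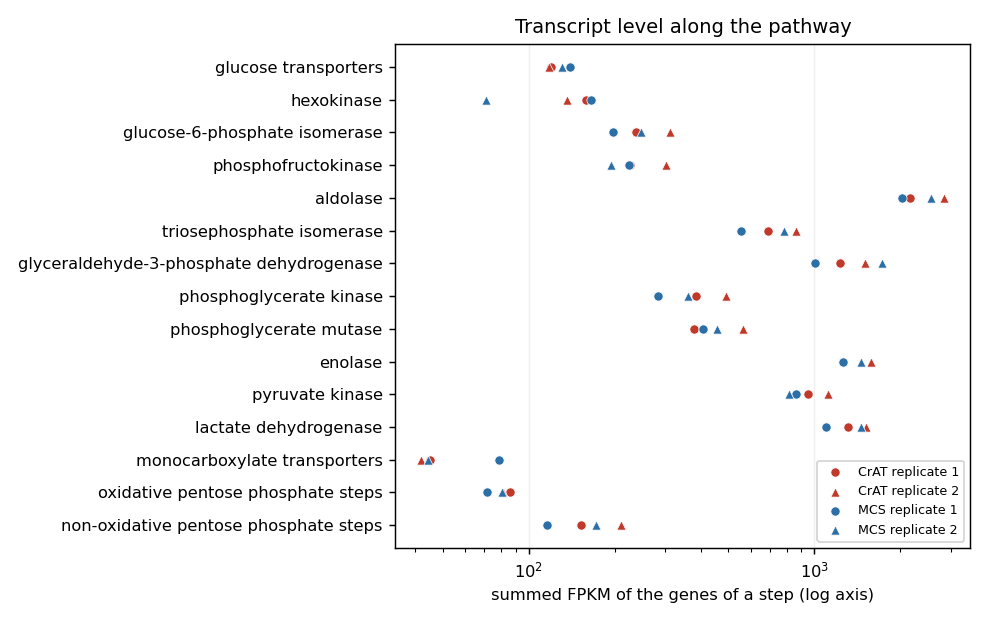
Summed FPKM of the genes of each step, on a log axis, for the 4 libraries (red CrAT, blue MCS; circles replicate 1, triangles replicate 2). Aldolase, enolase, glyceraldehyde-3-phosphate dehydrogenase and lactate dehydrogenase lie above 1000 FPKM in all 4 libraries, and the glucose transporters, hexokinase and monocarboxylate transporters lie at 164.5 FPKM or lower.

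Glucose enters through Slc2a1 (GLUT1), the main glucose transporter of the retina and its barriers, and Slc2a3 (GLUT3), a high-affinity transporter typical of neurons. Slc2a1 was 357.3 and 265 CPM (CrAT pair) against 427.4 and 359.3 CPM (MCS pair). The groups did not overlap, but CrAT replicate 1 and MCS replicate 2 were nearly level. The log2 fold change was -0.34 (95% interval -1.09 to 0.42, edgeR adjusted p = 1), -0.13 without CrAT replicate 2 and -0.57 without CrAT replicate 1. Slc2a3 was 154.5 and 310.5 CPM (CrAT pair) against 108.4 and 185.3 CPM (MCS pair). Here the groups overlapped and replicate 2 was the higher library in both groups. Its log2 fold change of 0.66 (95% interval -0.43 to 1.76, edgeR adjusted p = 1) was the highest of the members, and 0.086 without CrAT replicate 2. Summed over the pair, FPKM was 119.4 and 117.6 in CrAT and 139 and 130.5 in MCS. The summed Mueller glia markers given above were lower in the same libraries as Slc2a1, and their part in it was not tested.

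**Figure D3:**
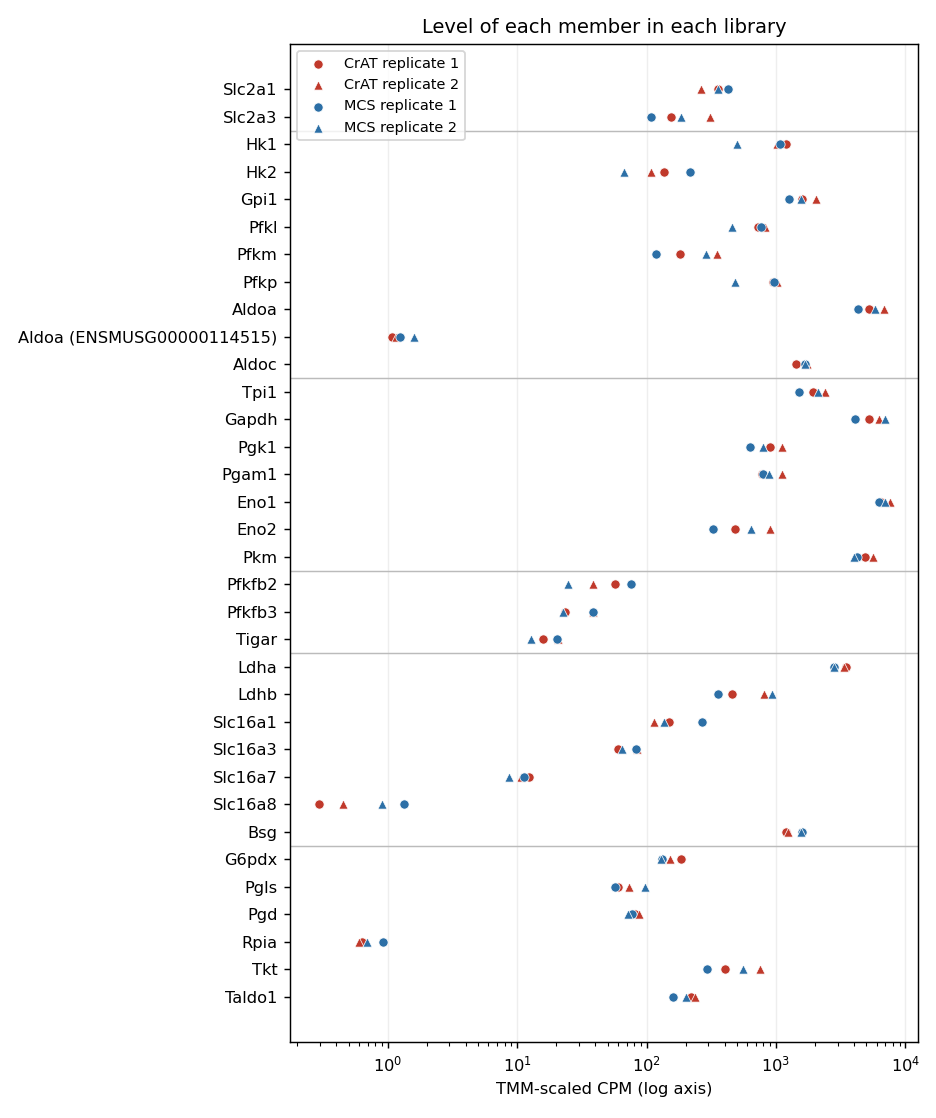
TMM-scaled CPM of each member in each library, on a log axis (red CrAT, blue MCS; circles replicate 1, triangles replicate 2), with lines between the roles. Hk1, Pfkl and Pfkp show MCS replicate 2 apart on the low side, at 496.3, 455.3 and 483 CPM. Other members also spread widely, such as Hk2 from 66.7 to 216 CPM and Ldhb from 357.8 to 926.6 CPM.

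Hexokinase traps glucose as glucose 6-phosphate. Hk1, the form of most brain cells, was 1202 and 1012 CPM (CrAT pair) against 1074 and 496.3 CPM (MCS pair). MCS replicate 2 alone was low, and the log2 fold change of 0.50 (SE 0.43) was 0.044 without it. Hk2, the inducible form that is enriched in photoreceptors, was 137 and 107.8 CPM (CrAT pair) against 216 and 66.7 CPM (MCS pair). The MCS libraries were the highest and the lowest of the 4, so the fold change turned with the library left out, from 0.88 without MCS replicate 1 to -0.82 without MCS replicate 2. Gpi1, which turns glucose 6-phosphate into fructose 6-phosphate, was 1581 and 2028 CPM (CrAT pair) against 1256 and 1562 CPM (MCS pair). The groups did not overlap after TMM scaling, but CrAT replicate 1 and MCS replicate 2 were nearly level. In deposited FPKM, scaled by library depth and not by TMM, these were 237.5 and 246.7 FPKM, and the groups overlapped. The log2 fold change was 0.36 (SE 0.33).

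Phosphofructokinase commits the sugar to glycolysis, and its 3 subunit genes fell into 2 patterns. The liver-type subunit Pfkl was 720.8 and 827 CPM (CrAT pair) against 761.4 and 455.3 CPM (MCS pair). The platelet-type subunit Pfkp was 949 and 1011 CPM (CrAT pair) against 959.3 and 483 CPM (MCS pair). In both, 3 libraries were close together and MCS replicate 2 was low, as for Hk1. Their log2 fold changes of 0.35 (SE 0.36) and 0.44 (SE 0.40) shrank to 0.024 and 0.031 without that library. The muscle-type subunit Pfkm was 182.1 and 348 CPM (CrAT pair) against 118.9 and 288.6 CPM (MCS pair), higher in replicate 2 of both groups. Its log2 fold change was 0.38 (SE 0.52) and turned to -0.15 without CrAT replicate 2.

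Aldolase cuts fructose 1,6-bisphosphate into trioses. The main Aldoa row (ENSMUSG00000030695) was 5235 and 6798 CPM (CrAT pair) against 4295 and 5799 CPM (MCS pair). The groups overlapped (log2 fold change 0.25, SE 0.35). The minor Aldoa row (ENSMUSG00000114515) held 26 to 44 counts a library. Aldoc, the brain form, was 1429 and 1738 CPM (CrAT pair) against 1688 CPM (both MCS), at a log2 fold change of -0.093 (SE 0.31). Both Aldoa rows overlap Tlcd3b on the other strand, and the library kit does not mark strand, so their reads cannot be told apart there. The same holds for Tpi1 with Spsb2, Gapdh with Iffo1, Pfkp with Pitrm1, Pfkm with Senp1, Slc16a3 with Csnk1d, G6pdx with Ikbkg and Slc2a1 with Gm12868 (613 to 912 counts a library, against 7025 to 10628 of Slc2a1).

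The enzymes from triosephosphate to pyruvate all had a log2 fold change above 0, 7 of 7, from 0.058 to 0.51, and none passed the test. All 7 also lay above 0 with library totals only and with DESeq2's size factors, while Gapdh, Eno1 and Pgam1 were below 0 without CrAT replicate 2, and Gapdh also without MCS replicate 1. Pgk1, phosphoglycerate kinase, the first ATP-forming enzyme of the pathway, was 894.6 and 1108 CPM (CrAT pair) against 626.4 and 795.3 CPM (MCS pair). It was 1.41-fold higher in CrAT with no overlap, a log2 fold change of 0.49 (95% interval -0.28 to 1.26, edgeR adjusted p = 1). Pkm, the pyruvate kinase of most tissues, was 4890 and 5630 CPM (CrAT pair) against 4248 and 4002 CPM (MCS pair). The groups were again apart, at a log2 fold change of 0.35 (95% interval -0.42 to 1.12, edgeR adjusted p = 1). Its splice forms share 1 row and were not separated. The transcript model Gm49759 overlaps Pkm on the same strand, at 11256 to 16038 counts a library. Pkm itself had 105640 to 149257 counts, so its level is uncertain.

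Tpi1, which interconverts the trioses, was 1946 and 2395 CPM (CrAT pair) against 1495 and 2109 CPM (MCS pair). Gapdh, often used as a reference gene, was 5256 and 6273 CPM (CrAT pair) against 4086 and 6989 CPM (MCS pair). The MCS libraries enclosed the CrAT libraries, and the spread between replicates was far wider than the log2 fold change of 0.058 (SE 0.39). Pgam1 (phosphoglycerate mutase) was 773.8 and 1119 CPM (CrAT pair) against 795 and 883.3 CPM (MCS pair). Eno1, the ubiquitous enolase, was 6458 and 7547 CPM (CrAT pair) against 6272 and 6962 CPM (MCS pair), and the neuronal enolase Eno2 483.7 and 891.3 CPM against 327 and 639.3 CPM. For Eno2 replicate 2 was the higher library in both groups, and its log2 fold change of 0.51 (SE 0.47) was 0.015 without CrAT replicate 2. Near-identical copies took a steady share beside some of these genes. Pgam1-ps2 had 20.1% to 20.6% of the count of Pgam1, Pgk1-rs7 8.93% to 9.59% of that of Pgk1 and Eno1b 6.67% to 7.39% of that of Eno1, so the levels of these 3 members are uncertain.

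Fructose 2,6-bisphosphate activates phosphofructokinase, and its level is set by the Pfkfb enzymes and lowered by Tigar, a p53-induced phosphatase that turns sugar toward the pentose phosphate pathway. These 3 were scarce. Pfkfb2 was 57.4 and 38.6 CPM (CrAT pair) against 76.2 and 24.5 CPM (MCS pair). Pfkfb3 was 23.6 and 38.7 CPM (CrAT pair) against 38.5 and 22.6 CPM (MCS pair), and Tigar 15.7 and 20.8 CPM (CrAT pair) against 20.3 and 12.9 CPM (MCS pair). In all 3 the MCS libraries lay further apart than the group means, with MCS replicate 1 above MCS replicate 2. MCS replicate 1 was the library with the most Malat1, and the part of that in these values was not tested. Pfkfb2 shares its place with Yod1 on the other strand, at 210 to 649 counts a library, and Gm29427 on the same strand, at 149 to 604 counts, against 677 to 1895 counts of its own, so its level is uncertain.

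Ldha, the lactate dehydrogenase subunit of lactate-producing tissue, was 3490 and 3326 CPM (CrAT pair) against 2815 and 2790 CPM (MCS pair). Replicates were closer for it than for most members, and the groups were apart, 1.22-fold higher in CrAT. The log2 fold change was 0.28 (95% interval -0.46 to 1.03, edgeR adjusted p = 1) and stayed between 0.25 and 0.33 without any 1 library. Ldhb, the heart-type subunit, was 460.4 and 813.5 CPM (CrAT pair) against 357.8 and 926.6 CPM (MCS pair). It followed the replicate and not the group, at a log2 fold change of -0.012 (SE 0.53).

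The monocarboxylate transporters carry lactate and pyruvate with a proton. Slc16a1 (MCT1) was 150.3 and 113.1 CPM (CrAT pair) against 268.6 and 135.3 CPM (MCS pair). MCS replicate 1 stood well above the other 3 libraries, and the log2 fold change of -0.62 (95% interval -1.60 to 0.36, edgeR adjusted p = 1) was -0.039 without it. Slc16a3 (MCT4), a form of glycolytic cells that export lactate, was 60.1 and 83.8 CPM (CrAT pair) against 82.3 and 64 CPM (MCS pair). Slc16a7 (MCT2), the high-affinity form of neurons, was lower, at 8.58 to 12.4 CPM. Gm45604 overlaps Slc16a7 on the other strand, at 86 to 94 counts a library against 237 to 295 of Slc16a7, so the level of Slc16a7 is uncertain.

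Slc16a8 (MCT3) is the form of the retinal pigment epithelium. It had 7 and 12 counts in CrAT and 33 and 25 in MCS, or 0.293 and 0.453 CPM against 1.33 and 0.905 CPM. The groups did not overlap, at a log2 fold change of -1.56 (95% interval -3.37 to 0.24, edgeR adjusted p = 1; DESeq2 unadjusted p = 0.185). The CrAT libraries alone would not have passed the filter on low counts, so this value is no support for a difference. On the other strand Gm49486 overlaps it with 410 to 475 counts a library, far more than Slc16a8 itself, and reads of this pair cannot be told apart by strand. Of 10 pigment epithelium markers 5 had enough counts to be tested. Rpe65, Lrat, Mlana, Tyr and Tyrp1 were at 0 in at least 1 library, Rpe65 and Tyr in all 4. The 10 summed to 61.7 and 53.5 CPM (CrAT pair) against 45.6 and 67.5 CPM (MCS pair), with overlap between the groups. Of the 5 tested, Ttr and Rdh5 had a log2 fold change above 0 (0.44 and 0.067) and Best1, Rgr and Pmel below (-1.65, -0.45 and -0.60). The groups did not overlap for Best1, a chloride channel of that epithelium, at 1.13 and 1.43 CPM (CrAT pair) against 2.90 and 5.18 CPM (MCS pair) (edgeR adjusted p = 1). Their part in the Slc16a8 value was not tested.

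Bsg (basigin), the partner of MCT1, MCT3 and MCT4, was 1193 and 1232 CPM (CrAT pair) against 1592 and 1559 CPM (MCS pair). Replicates were within a few percent of each other and the groups were apart, a log2 fold change of -0.38 (95% interval -1.10 to 0.34, edgeR adjusted p = 1). It stayed between -0.39 and -0.36 without any 1 library. The edgeR fit moderates the spread of a gene towards that of genes of like level, so close replicates alone did not make a call here. The summed Mueller glia markers were lower in the same libraries, and their part in the value of Bsg was not tested.

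In the oxidative branch of the pentose phosphate pathway, G6pdx, the entry enzyme and first source of NADPH, was 183.9 and 151.7 CPM (CrAT pair) against 132.6 and 129.6 CPM (MCS pair). The groups did not overlap, at a log2 fold change of 0.36 (95% interval -0.31 to 1.02, edgeR adjusted p = 1). The lactonase Pgls was 60.5 and 72.8 CPM (CrAT pair) against 57.4 and 96.8 CPM (MCS pair), with overlap. Pgd, the second enzyme that makes NADPH, was 81.5 and 87.4 CPM (CrAT pair) against 77.5 and 71.2 CPM (MCS pair). Its groups were apart by little, at a log2 fold change of 0.18 (SE 0.27).

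In the non-oxidative branch, which returns pentoses to glycolysis, Tkt (transketolase) was 404.4 and 755.2 CPM (CrAT pair) against 294.2 and 558.7 CPM (MCS pair). Replicate 2 was again the higher library in both groups, and the log2 fold change of 0.44 (SE 0.46) was -0.064 without CrAT replicate 2. Mir3076 overlaps Tkt on the same strand, at 464 to 1190 counts a library against 7315 to 20022 of Tkt. Taldo1 (transaldolase) was 222 and 235.7 CPM (CrAT pair) against 161.3 and 201.9 CPM (MCS pair), with no overlap and a log2 fold change of 0.33 (SE 0.29). Rpia, the ribose 5-phosphate isomerase, was the least abundant member per length. It had 15 and 16 counts in CrAT and 23 and 19 in MCS, and per length Tkt exceeded it by 236.9 to 911.8 times.

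Within families, the share of an isozyme in summed FPKM does not depend on the scaling between libraries. Hk2 made up 14.0% and 13.2% of hexokinase transcripts in CrAT and 22.3% and 16.1% in MCS. Aldoc made up 19.6% and 18.6% of aldolase transcripts in CrAT and 26% and 20.6% in MCS. In both families the CrAT libraries lay below the MCS libraries, but MCS replicate 2 lay nearer to CrAT than to MCS replicate 1. With 2 libraries a group the lowest two-sided p of an exact permutation test is 0.333, so no test is given.

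The other family shares overlapped between the groups, apart from the scarce Slc16a7 and Slc16a8. Ldhb made up 21.8% and 34.0% of lactate dehydrogenase transcripts in CrAT and 21.1% and 41.2% in MCS. Slc2a3 made up 17.3% and 36.2% of the transporter pair in CrAT and 10.9% and 20% in MCS. Pfkm made up 23.4% and 34.3% of phosphofructokinase transcripts in CrAT and 16.1% and 45.3% in MCS. Eno2 made up 7.89% and 11.9% of enolase transcripts in CrAT and 5.62% and 9.50% in MCS. In these 4 families the share of the named form was larger in replicate 2 of both groups. Slc16a1 was the main transporter of its family, at 60.2% to 78.1%.

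**Figure D4:**
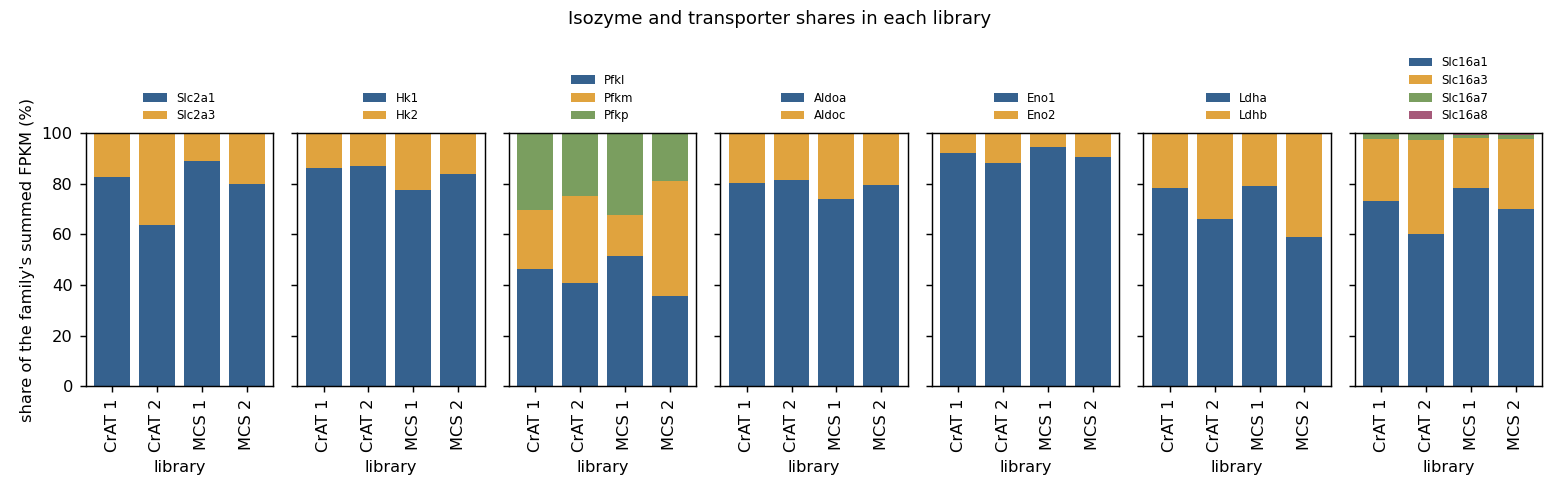
Share of each isozyme or transporter in the summed FPKM of its family, stacked to 100%, in the 4 libraries. Hk1, Aldoa, Eno1 and Ldha hold 58.8% or more of their family in every library. The shares of Ldhb, Pfkm, Eno2 and Slc2a3 are larger in replicate 2 than in replicate 1 of both groups.

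For 26 of 34 members the log2 ratio between replicates was larger in size than the log2 fold change in at least 1 group, and for 15 in both groups. It was smaller in both for Pgk1, Pkm, Ldha, Slc16a8, Bsg, G6pdx, Pgd and Taldo1. The same counts were not made over all genes tested, so they do not set the members apart from other genes. Between replicates 2 and 1, 16 members were higher in replicate 2 of both groups, 9 were lower in both and 9 went opposite ways. The share with the same sign in both groups was 73.5%, against 65.3% of all genes tested. CrAT and MCS share no library in this comparison. Ldhb was 1.77 times as high in replicate 2 as in replicate 1 of CrAT and 2.59 times in MCS. For Pfkm the ratios were 1.91 and 2.43, for Slc2a3 2.01 and 1.71, for Eno2 1.84 and 1.96, and for Tkt 1.87 and 1.90. At the other end Hk2 had ratios of 0.787 and 0.309, Pfkfb2 0.672 and 0.322, Hk1 0.842 and 0.462 and Slc16a1 0.752 and 0.504.

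Cell type markers differed between the replicates in the same libraries. The 18 rod markers summed to 61360 CPM in replicate 1 and 33890 CPM in replicate 2 of CrAT, and to 62830 and 36750 CPM in MCS. The 15 amacrine cell markers summed to 1152 and 2688 CPM (CrAT pair) against 1052 and 1767 CPM (MCS pair), with Chat and Slc18a3, of cholinergic amacrine cells, at 0 in some libraries. Ganglion cell markers summed to 409.4 and 665.9 CPM (CrAT pair) against 394.4 and 543.2 CPM (MCS pair). The rod sum was thus lower, and the amacrine and ganglion cell sums higher, in the replicates in which Ldhb, Pfkm, Slc2a3, Eno2 and Tkt were higher. Bipolar cells, also inner retinal neurons, went the other way, with 14 markers at 2638 and 1811 CPM (CrAT pair) against 2149 and 2000 CPM (MCS pair). The 12 cone markers were likewise lower in replicate 2, at 4538 and 2958 CPM (CrAT pair) against 3869 and 3181 CPM (MCS pair). So were the Mueller glia markers given above, while 8 horizontal cell markers were higher, at 411.8 and 492.4 CPM against 454.7 and 547.2 CPM. Not every marker followed its list. The ganglion cell marker Jam2 was 132.5 and 70 CPM (CrAT pair) against 191.5 and 76.2 CPM (MCS pair). The amacrine cell marker Meis2 was also lower in replicate 2 of both groups. The part of these cell types in these members' values was not tested.

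**Figure D5:**
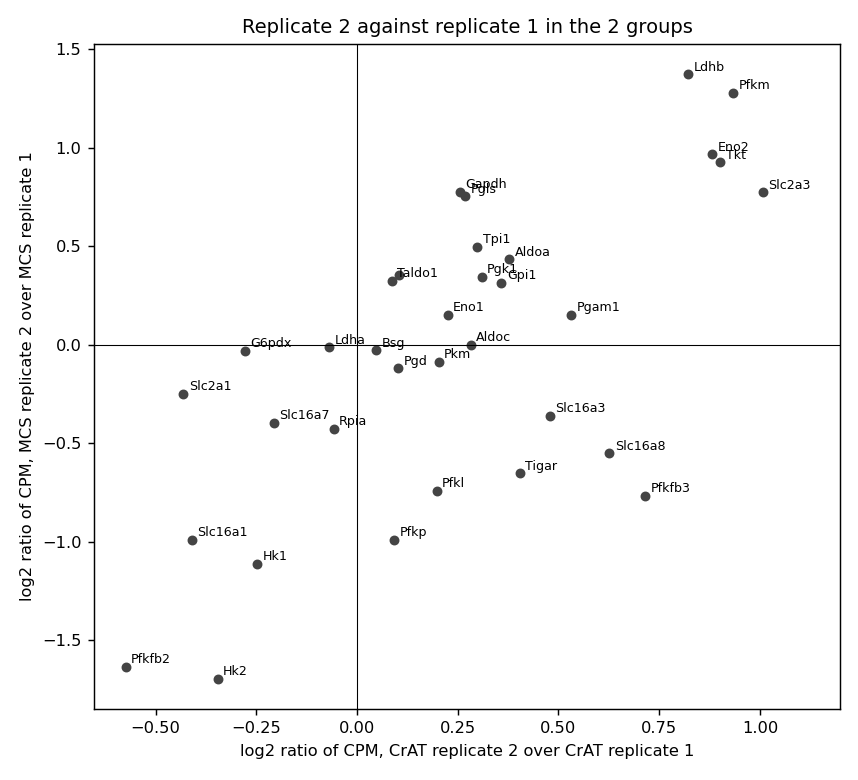
Log2 ratio of CPM between replicate 2 and replicate 1, in CrAT on the horizontal axis and in MCS on the vertical axis, 1 point per member (the minor Aldoa row is not named). Ldhb, Pfkm, Eno2, Tkt and Slc2a3 lie at the upper right, higher in replicate 2 of both groups, and Hk2, Pfkfb2, Hk1 and Slc16a1 at the lower left.

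Other genes of the same pathways were read from fixed lists in the same fit. None passed the test by edgeR or DESeq2 in any of these lists. Of 24 further glycolysis and gluconeogenesis genes tested, 13 were above 0 and 11 below, with a median log2 fold change of 0.042. Those with the lowest p were Pfkfb4, a hypoxia-induced Pfkfb form, at -0.76 (SE 0.35), Pfkfb1 at 1.68 (SE 0.77) and the transporter Slc2a8 at -0.86 (SE 0.40). Of 11 further lactate and pyruvate genes 5 were above 0 and 6 below. The monocarboxylate transporter Slc5a8 was 1.05 and 2.64 CPM (CrAT pair) against 0.161 and 0.109 CPM (MCS pair). Its MCS values were close to the limit of 3 counts. Only the CrAT libraries, where it was high, carried it past the filter on low counts. Its log2 fold change of 3.73 (SE 0.86, edgeR unadjusted p = 0.00441, adjusted p = 1) is therefore no support for a difference.

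Of 10 further pentose phosphate genes 6 were above 0 and 4 below, and 4 had both CrAT libraries on the higher side (15% of all genes). Prps2, which turns ribose 5-phosphate into the precursor of nucleotides, was 13.5 and 15.3 CPM (CrAT pair) against 6.11 and 5.43 CPM (MCS pair), a log2 fold change of 1.32 (edgeR unadjusted p = 0.0127, adjusted p = 1). Its relative Prps1 was 188.4 and 169 CPM (CrAT pair) against 118.4 and 144.1 CPM (MCS pair), a log2 fold change of 0.45 (SE 0.28).

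Of 16 regulators of glycolysis 12 were below 0, with a median log2 fold change of -0.44, and 2 had an unadjusted p under 0.05, both lower in CrAT, against 2.87% of all genes tested in that direction. Txnip, an arrestin-like protein that is induced by glucose and removes Slc2a1 from the membrane, was 39.1 and 43.7 CPM (CrAT pair) against 79.8 and 75.5 CPM (MCS pair). The groups were well apart, at a log2 fold change of -0.91 (SE 0.28; edgeR unadjusted p = 0.0155, adjusted p = 1). Egln2, an oxygen-sensing hydroxylase that marks HIF for destruction, was 29.6 and 42.7 CPM (CrAT pair) against 63.2 and 72.2 CPM (MCS pair), a log2 fold change of -0.90 (SE 0.32). Nxnl1, the rod-derived factor that raises glucose uptake of cones through basigin, was 130.4 and 67.7 CPM (CrAT pair) against 157.2 and 113.4 CPM (MCS pair), with overlap.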

How the data were processed

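RNA of cells sorted from the retina was sequenced in 2 CrAT and 2 MCS libraries. Per the labels, low-input SMART-seq cDNA was used, which does not mark strand. The submitters' processing notes name STAR 2.7.2b, GRCm38.p6 and mm10. The sources used here do not name a counter or annotation release. The authors deposited estimated counts per gene, rounded to whole numbers: deposited FPKM times exon length and a column total gave them within 0.5, and 43.6% to 44.9% of these values were not whole within 0.02. FPKM is the authors' own, per kilobase of exon and library depth. A GRCm38 annotation shares 51898 identifiers, but only 1402 at identical positions, so no coordinate of the table is printed; they served only to find genes that overlap within the table. Each table held 2 columns of other samples, which were not used. Plain counts had been assumed when the test was chosen, and it was kept.

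Genes were kept by filterByExpr (19638) and scaled by TMM (factors 0.970 to 1.02). The test was edgeR 4.0.16 (quasi-likelihood, robust, group only, two-sided, Benjamini-Hochberg, threshold 0.05) in R 4.3.3. DESeq2 1.42.0, other filters and scalings, a replicate block and leaving out each library were alternatives. Intervals used edgeR's moderated degrees of freedom. Scripts were tested on simulated data. Near-identical copies and overlapping genes were looked up in the count table. Members and lists were chosen with earlier results of these data known. The members named with every library's value were the 8 with the lowest p, the isozyme families, Slc2a1, Gapdh, Pkm, Bsg and the pentose phosphate genes; other members were named after their values were seen. Of each other pathway list up to 3 genes with the lowest p are named; Nxnl1, Malat1, the pigment epithelium markers, Pou4f1 and the copies were chosen later.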

Additional observations from a re-analysis of the deposited data

How the results depend on the processing

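No member passed an adjusted p of 0.05 under any alternative run. Over the whole table, 2 genes passed without a filter on low counts (Apol6 and H2-Aa) and 55 in DESeq2, against 0. Counts of members at an unadjusted p under 0.05 were 0 to 3 when 1 library was left out, against 0 with all 4 and 2.82% to 7.27% of all genes. Without MCS replicate 1 they were Hk1, Hk2 and Pfkp, all higher in CrAT, and without MCS replicate 2 Slc16a1 and Hk2, both lower. A group of 1 library is assumed to vary like the other. Members with groups not overlapping numbered 16 to 27 without 1 library, against 12, where 59.3% to 72.4% of all genes did. The median log2 fold change of the members was -0.027 to 0.29 without 1 library.

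The titles number the replicates alike in both groups. Changes from replicate 1 to 2 had a correlation of 0.47 between the groups across genes, which are not independent, and labels do not say that a number marks a shared animal or day. With the number as a replicate block 2 members, Slc2a3 and Eno2, had an unadjusted p under 0.05, against 9.79% of all genes, and no gene passed. 3 signs turned, to 0.12 for Pfkfb2, 0.016 for Hk2 and 0.088 for Ldhb. With library totals only Pfkfb3 turned to -0.017.

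Without 1 library, log2 fold changes ran from -0.67 to 0.97 for Pfkfb2, -0.36 to 0.47 for Pfkfb3, -0.15 to 0.50 for Tigar, -0.82 to 0.88 for Hk2, -0.15 to 1.16 for Pfkm, -0.23 to 0.042 for Aldoc, -0.28 to 0.50 for Gapdh, -0.022 to 0.19 for Eno1, -0.10 to 0.42 for Pgam1, -0.54 to 0.83 for Ldhb, -0.27 to 0.20 for Slc16a3, -0.54 to 0.22 for Pgls and -0.064 to 0.98 for Tkt. Isozyme shares from counts per kilobase are the same as those from FPKM by construction and test nothing. A filter at a CPM of 1 in 2 libraries removed Slc16a8 and Rpia. Depth limits Slc16a8, Rpia and the minor Aldoa row, at 7 to 44 counts.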

Other observations

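Targets of HIF-1 outside glycolysis, a list of 19 genes of which 18 were tested, did not lie to one side. Of them 10 were above 0 and 8 below, with a median log2 fold change of 0.061, and none passed in edgeR or DESeq2. Pdk1, a kinase that inhibits pyruvate dehydrogenase, was 55.4 and 60.4 CPM (CrAT pair) against 37.3 and 23.3 CPM (MCS pair). Bhlhe41, a clock repressor, was 10.6 and 9.92 CPM (CrAT pair) against 28.8 and 17.3 CPM (MCS pair). Their log2 fold changes were 0.93 (SE 0.34) and -1.17 (SE 0.40), both with an adjusted p of 1 in edgeR. Ndrg1, another target, was 155.2 and 86.2 CPM (CrAT pair) against 192 and 214.3 CPM (MCS pair).

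Of 13 glycogen genes tested 3 were above 0 and 10 below, with a median of -0.073. The brain glycogen phosphorylase Pygb was 153.9 and 155.8 CPM (CrAT pair) against 220.8 and 154.5 CPM (MCS pair), level in 3 libraries and higher in MCS replicate 1. The liver form Pygl was 19.1 and 24.9 CPM (CrAT pair) against 33.3 and 24.8 CPM (MCS pair), lowest in CrAT replicate 1 and highest in MCS replicate 1. Phkb, a subunit of phosphorylase kinase, was 36.9 and 32.7 CPM (CrAT pair) against 29.9 and 15 CPM (MCS pair).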
